A study of Rattus with 6 samples.

Results

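The BMP and TGF-beta module was followed here as 41 named genes, and all 41 were found by symbol among the 16690 genes of the deposited table. They are ligands, latent TGF-beta binding proteins, extracellular antagonists and modulators, receptors, Smads, feedback inhibitors and target genes. RNA sequencing was done on mesenchymal stem cells, grown as adherent cells from femur and tibia marrow of Sprague Dawley rats and described as CD29+, CD90+, CD34- and CD45- by flow cytometry. One group of 3 libraries came from animals in which chronic kidney disease (CKD) was modelled, and the other group of 3 from healthy controls. All 6 libraries carry the genotype label wild-type, and cells were used at passages 3 to 5 after culture in medium with 10% serum. How the disease was induced, and the rats' age, are not given in the sources used here. The series concerns vesicles that these cells release in CKD and their part in vascular calcification, and the extract protocol names exosomes where the design text names the cells, so the origin of the RNA is not certain.

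Ligands of the TGF-beta superfamily bind pairs of type I and type II serine/threonine kinase receptors, which phosphorylate receptor Smads that enter the nucleus with Smad4. TGF-betas and activins act mainly through Smad2 and Smad3, BMPs through Smad1, Smad5 and Smad9. Outside the cell, antagonists such as chordin, noggin, gremlin and follistatin bind ligands, and latent TGF-beta binding proteins hold TGF-beta in the matrix. In marrow stroma, BMPs are known as inducers of bone formation and TGF-betas as regulators of matrix production. Inhibitory Smads and the ID proteins are products of target genes, and the inhibitory Smads dampen the signal.

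Several facts about the libraries precede the results. The disease model tag goes against title and column code in CKD replicate 1 and in control replicate 2. CKD replicates 1 and 3 have library names with a shared start, as do control replicates 1 and 2, so separate animals are not assured, and each p-value reflects only how these libraries vary, which can be technical. CKD replicates 2 and 3 were near each other, as were control replicates 2 and 3 (Pearson r = 0.996 and 0.998 across genes), against 0.916 to 0.967 for the other 13 pairs. The highest of those 13 was CKD replicate 1 with control replicate 1, so each first replicate was nearer the other group's first replicate than its own group. CKD replicate 1 was at 0.935 and 0.944 with CKD replicates 2 and 3, and at 0.950 and 0.946 with control replicates 2 and 3. It was thus nearer every control than either other CKD library. Control replicate 1 was at 0.951 and 0.947 with the other controls, and at 0.935 and 0.940 with CKD replicates 2 and 3. Recovered depth was 34404037 to 46892613 fragments per library. Of 20 markers of haematopoietic cells and macrophages, the median was 1.60, 33.8 and 20.03 FPKM in CKD replicates 1, 2 and 3, and 2.90, 0.197 and 0.0935 FPKM in control replicates 1, 2 and 3. Their summed level was 296 to 3342 FPKM in CKD and 14.5 to 407 FPKM in control, and Adgre1, C1qb and C1qc were listed at 0 in at least 1 control. Ptprc, which encodes CD45, was at 0.783, 15.5 and 11.4 FPKM in CKD and 1.33, 0.0140 and 0.0204 FPKM in control. Of 10 stromal markers, some such as Thy1 and Col1a1 were high in every library, and others were lower or varied. Nt5e was at 8.53 to 38.8 FPKM, Pdgfra at 16.7 to 69.6 FPKM, and Eng at 10.8 to 21.8 FPKM in CKD and 11.8 to 88.8 FPKM in control. Lepr was at most 0.246 FPKM, and the endothelial markers Pecam1, Cdh5 and Kdr were at or near 0 (Tek reached 2.31 FPKM in control).

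FPKM is a level per length of gene and per depth of library, so levels of different genes can be set side by side. Values of single libraries are given below for replicates 1, 2 and 3 in that order, and ± is the SD over 3 libraries. Of the 41 genes, 39 had at least 1 FPKM in at least 3 libraries and were tested by limma on log2(FPKM + 1), and Noggin (Nog) and Smad9 were not. A gene is called where its p, adjusted over all 10638 tested genes, is under 0.05. In CKD, 1 gene was called higher (Bmp1), where 1.33% of all tested genes were called higher. The 1 gene called lower was Chrd, where the share over all tested genes was 0.733%. The median log2 fold change of the 39 was 0.027, beside 0.053 over all tested genes, and 20 of the 39 were positive, where 59.4% of all tested genes were.

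Groups did not overlap for 11 of the 39, which is 28.2%, and for 27.8% of all tested genes, so the total is near the background. By direction, 5 were higher in all CKD libraries, where 18.3% of all tested genes were, and 6 were lower in all CKD libraries, where 9.59% of all tested genes were. The same 11 genes had an unadjusted limma p under 0.05, 5 higher against a background of 14.6% and 6 lower against a background of 7.51%. In the authors' deposited table, 4 of the 41 were higher at a q-value under 0.05, where 6.72% of its genes were, and 6 were lower, where 4.60% were. That background covers all 16690 genes, 6052 of them below the filter, whereas 39 of the 41 passed it, so the sets are unlike. All 10 members at that q-value had groups that did not overlap. The share without overlap among all genes at that q-value was not computed, so this count has no background.

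**Figure D1:**
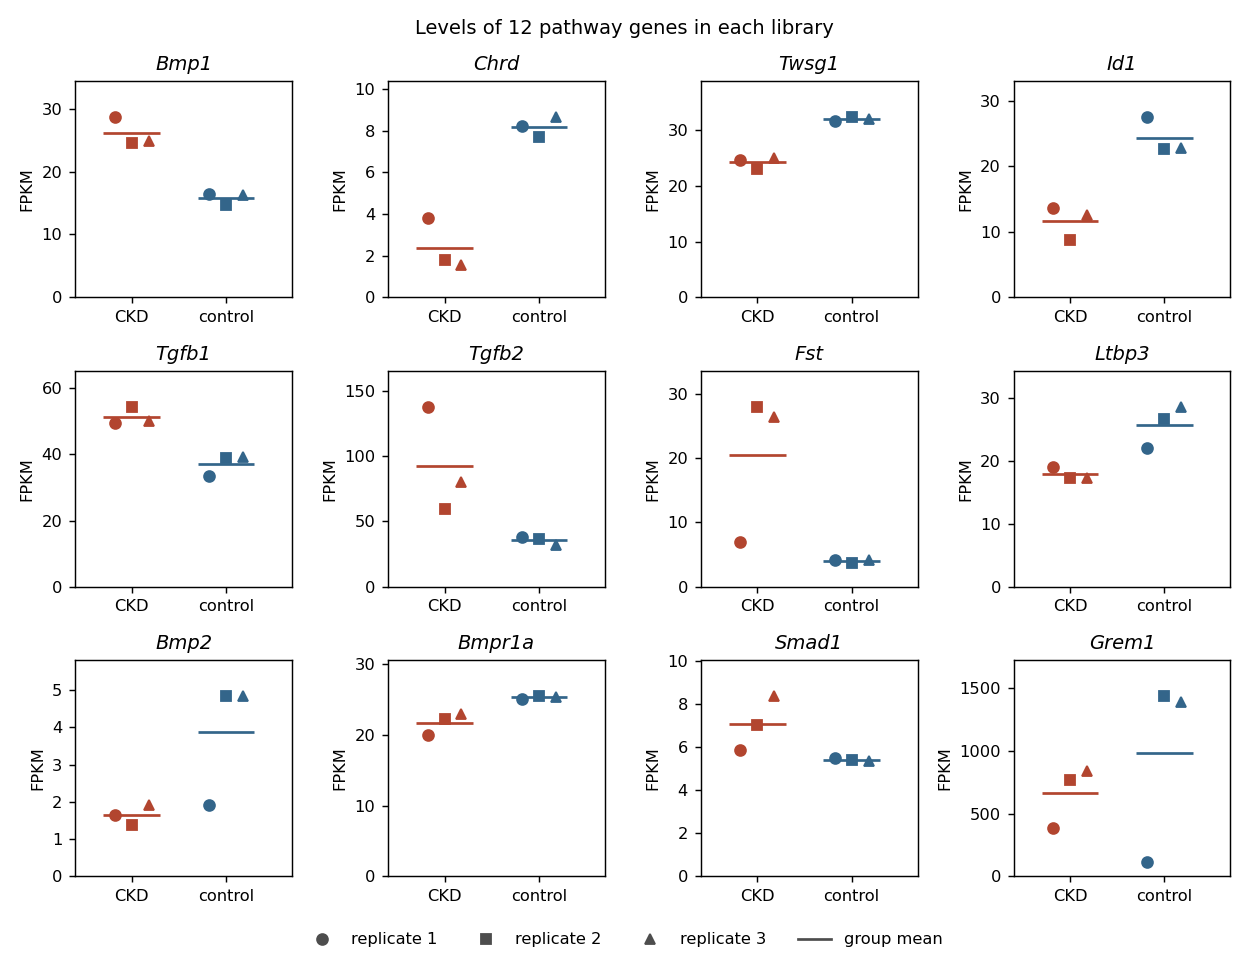
FPKM of 12 genes (vertical axes start at 0) in CKD and control libraries, with a symbol for each replicate number and a line at the group mean. In 11 panels every CKD library lies on one side of every control, as for Bmp1 (24.6 to 28.7 FPKM in CKD, 14.7 to 16.4 FPKM in control), and for Grem1 the groups overlap.

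Both called genes, Bmp1 and Chrd, were among the 7 tested extracellular antagonists and modulators, and they are described first with Twsg1. Chordin is an extracellular BMP antagonist, BMP1 is not a BMP but a metalloproteinase of the tolloid family that cleaves chordin as well as procollagens, and twisted gastrulation (Twsg1) binds BMPs and chordin and modulates that cleavage. Bmp1 (NCBI Gene 83470) rose, with 28.7, 24.6 and 24.9 FPKM in CKD against 16.4, 14.7 and 16.3 FPKM in control. All CKD values lay above all control values, and the means were 26.1 ± 2.27 and 15.8 ± 0.970 FPKM (log2 fold change 0.69, SE 0.09, adjusted p = 0.0399 in limma). Chrd (NCBI Gene 117275) fell, with 3.78, 1.79 and 1.52 FPKM in CKD against 8.21, 7.70 and 8.65 FPKM in control. Its means were 2.36 ± 1.23 and 8.19 ± 0.475 FPKM, 3.46-fold lower in CKD, and CKD replicate 1 was the highest of the CKD libraries (log2 fold change -1.51, SE 0.25, adjusted p = 0.0498 in limma).

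Twsg1 had narrow groups, with 24.7, 23.1 and 25.0 FPKM in CKD and 31.7, 32.4 and 32.1 FPKM in control. It stood just outside the threshold (log2 fold change -0.39, SE 0.07, adjusted p = 0.0508 in limma), while its q-value in the authors' deposited table was 2.61e-05. Within a library, the ratio of Bmp1 to Chrd was 7.60, 13.7 and 16.4 in CKD and 2.00, 1.91 and 1.89 in control. This ratio was chosen after the values were seen and has no test. Since Bmp1 was higher and Chrd lower in every CKD library, it separates the groups by construction. It was nearly constant over the controls, including control replicate 1, which differed most from the others.

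Both calls rested on particular libraries. When any 1 of the replicates 2 and 3 of either group was left out, neither was called, at an adjusted p in limma of 0.153 to 0.210 for Bmp1 and 0.184 to 0.229 for Chrd. In each of those fits at most 9 of all 10638 genes were called. Without CKD replicate 1 the adjusted p in limma was 0.0143 for Bmp1 and 0.00456 for Chrd, and without control replicate 1 it was 0.0242 and 0.0459. The log2 fold changes stayed between 0.62 and 0.73 for Bmp1 and between -1.79 and -1.33 for Chrd over these leave-outs. Leaving out the 2 libraries whose tag and title conflict, Bmp1 was uncalled (log2 fold change 0.57, adjusted p = 0.0629 in limma) and Chrd was called (-1.83, adjusted p = 0.0402 in limma). Chrd was also uncalled without the filter, with a pseudocount of 0.1, after scaling by size factors and in limma-voom (adjusted p in limma of 0.0513 to 0.0681), and Bmp1 after scaling (0.0519). Averaging the libraries that share a name start ended both calls (adjusted p in limma 0.0771 for Bmp1 and 0.0703 for Chrd). The averaged pairs were not the near pairs: they had Pearson r = 0.944 in CKD and 0.951 in control. That fit therefore did not merge the most similar libraries, and which libraries share an animal is not known. With groups by the tag no gene of all 10638 was called, and the log2 fold change was 0.07 for Bmp1 and -0.93 for Chrd. The log2 fold changes of all 11 genes without overlap were nearer 0 in that grouping, with 0.02 for Tgfb2, 1.39 for Fst and -0.55 for Id1. By construction, exchanging CKD replicate 1 and control replicate 2 lessens the difference of such genes, so this does not tell tag from title. Summed macrophage markers were at 296, 3342 and 2249 FPKM in CKD and 407, 22.4 and 14.5 FPKM in control, and their part in these differences was not tested.

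No other antagonist was called. Follistatin (Fst), which binds activins and also some BMPs, was at 6.91, 28.0 and 26.4 FPKM in CKD and at 4.15, 3.72 and 4.09 FPKM in control. All CKD libraries were above all controls, but CKD replicate 1 was much nearer the controls than the other CKD libraries were. The means were 20.4 ± 11.7 and 3.99 ± 0.235 FPKM, and the gene did not pass the threshold (log2 fold change 1.89, SE 0.51, 95% interval 0.62 to 3.15, adjusted p = 0.123 in limma). Without CKD replicate 1 it was called (log2 fold change 2.50, adjusted p = 0.00179 in limma), as were 15.1% of all tested genes. It was also called without the 2 libraries whose tag and title conflict (2.46, adjusted p = 0.0313 in limma). The 2 CKD libraries with high Fst are those with high macrophage markers, whose part in this was not tested. Fst over Chrd was 1.83, 15.6 and 17.4 in CKD and 0.506, 0.483 and 0.473 in control. Since Fst was higher and Chrd lower in every CKD library, this ratio separates the groups by construction, and it has no test.

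Gremlin 1 (Grem1), an antagonist of BMP2 and BMP4, had the highest mean of the module, and its values spread more within the groups than between them. It stood at 385, 766 and 839 FPKM in CKD and at 117, 1437 and 1391 FPKM in control. Control replicate 1 was the lowest and the other controls the highest of all libraries, so the log2 fold change was 0.03 with a 95% interval of -2.54 to 2.59. Grem1 made up 83.7% to 91.9% of the summed FPKM of 7 antagonists (Chrd, Nog, Grem1, Fst, Fstl3, Bmper and Twsg1) in CKD, and 66.6% to 95.3% in control. Fstl3, a follistatin relative that binds activins, was at 31.0, 13.5 and 17.0 FPKM in CKD and 8.12, 22.6 and 20.9 FPKM in control. Bmper, a chordin family member, was at 3.49 to 7.62 FPKM in CKD and 2.49 to 4.07 FPKM in control. In limma the adjusted p was 0.768 for Fstl3 and 0.423 for Bmper. Nog, which binds BMPs and blocks their receptors, was low, at 1.23, 0.0714 and 0.214 FPKM in CKD and 3.81, 0.647 and 0.882 FPKM in control. The CKD values of Nog rest on 77, 4 and 15 fragments, and a reference annotation of another assembly places a related gene, Nogl1, in an overlapping position, so the assignment of its fragments is uncertain.

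Among TGF-beta ligands, Tgfb2 and Tgfb1 were higher in every CKD library than in every control. Tgfb2 had 138, 59.2 and 80.0 FPKM in CKD and 37.9, 36.7 and 31.8 FPKM in control, 2.60-fold apart in means (log2 fold change 1.27, SE 0.31, adjusted p = 0.1001 in limma). Tgfb1, the isoform best known for fibrosis and immune control, had 49.4, 54.4 and 50.0 FPKM in CKD and 33.4, 38.9 and 39.1 FPKM in control (log2 fold change 0.46, SE 0.09, adjusted p = 0.0736 in limma). Neither passed the threshold, whereas the authors' deposited table gives q-values of 0.00456 for Tgfb2 and 0.00869 for Tgfb1. Without CKD replicate 1 both were called (adjusted p in limma 0.0257 for Tgfb2 and 0.0414 for Tgfb1), as were 15.1% of all tested genes.

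Tgfb3 was the most abundant ligand and varied most within CKD, at 351, 117 and 180 FPKM, against 213, 233 and 223 FPKM in control. The groups overlapped (log2 fold change -0.19, 95% interval -1.15 to 0.76). In CKD the share of Tgfb2 among the 3 isoforms was nearly constant while their sum was not. Tgfb2 made up 25.6%, 25.6% and 25.8% of their summed FPKM in CKD and 13.3%, 11.9% and 10.8% in control, while the sum itself was 538, 231 and 310 FPKM in CKD and 284, 309 and 294 FPKM in control. Tgfb3 made up 65.2%, 50.8% and 58.0% in CKD and 74.9%, 75.5% and 75.9% in control. These shares were chosen after the values were seen and carry no test. Inhba, which encodes the activin A subunit, was at 59.8, 70.7 and 69.3 FPKM in CKD and 66.4, 46.0 and 37.5 FPKM in control, and control replicate 1 overlapped CKD (adjusted p = 0.290 in limma). Without that control Inhba was called (log2 fold change 0.66, adjusted p = 0.0423 in limma).

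**Figure D2:**
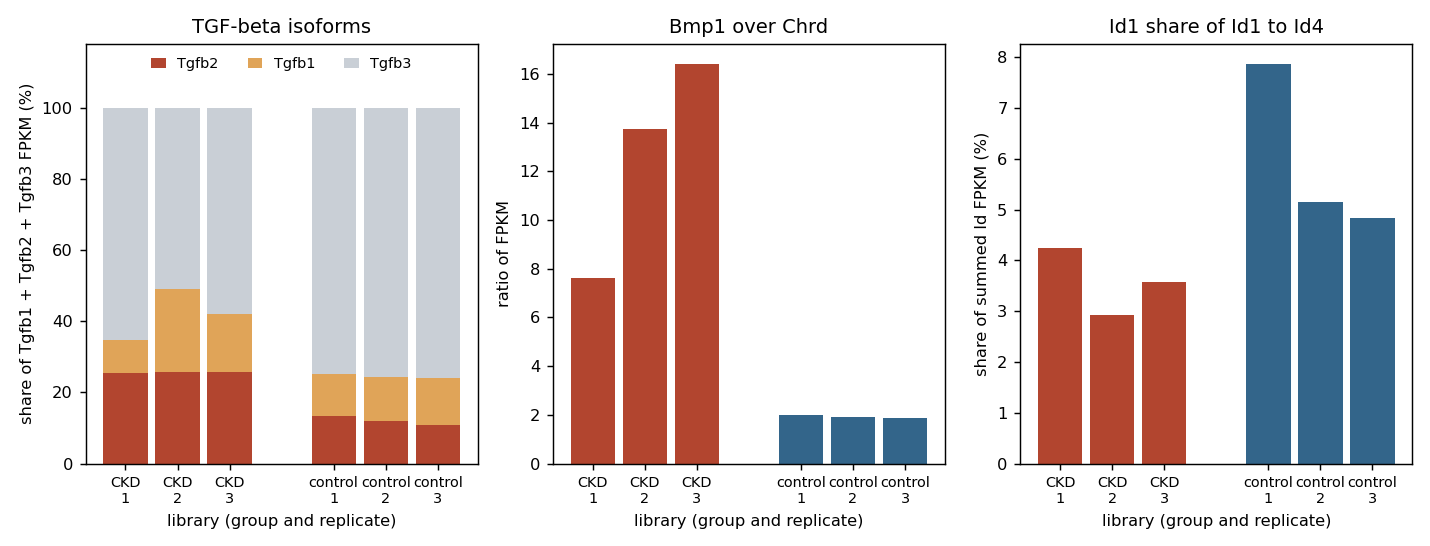
Per library, the shares of Tgfb2, Tgfb1 and Tgfb3 in their summed FPKM (left, percent), the ratio of Bmp1 to Chrd FPKM (middle) and the share of Id1 in the summed FPKM of Id1 to Id4 (right, percent). The Tgfb2 share is 25.6% to 25.8% in CKD and 10.8% to 13.3% in control, and the ratio is 7.60 to 16.4 in CKD and 1.89 to 2.00 in control.

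BMP ligands were scarce beside the TGF-betas, with a summed FPKM of Bmp2 to Bmp6 of 18.4 to 31.9 in CKD and 21.2 to 40.8 in control. Bmp2, a strong inducer of bone formation, was at 1.66, 1.39 and 1.91 FPKM in CKD and 1.93, 4.83 and 4.84 FPKM in control. The highest CKD library and the lowest control were almost equal, and the gene did not pass the threshold (log2 fold change -0.81, SE 0.29, adjusted p = 0.189 in limma). Without control replicate 1 it was called (log2 fold change -1.14, adjusted p = 0.0112 in limma). Bmp3, an atypical member that antagonises other BMPs, had the highest mean of the 5. It had 21.5, 6.45 and 7.60 FPKM in CKD and 26.1, 11.7 and 11.5 FPKM in control, with the highest value of each group in replicate 1 (adjusted p = 0.586 in limma). Bmp4 was at 1.66, 4.49 and 4.23 FPKM in CKD and 2.76, 1.85 and 1.79 FPKM in control, and Bmp6 at 3.56, 5.31 and 5.32 FPKM in CKD and 9.81, 2.54 and 2.40 FPKM in control. For both, CKD replicate 1 lay below control replicate 1 while the other CKD libraries lay above the other controls. Bmp5 was at 3.51, 0.807 and 1.17 FPKM in CKD and 0.184, 1.15 and 0.725 FPKM in control. In limma the adjusted p was 0.433 for Bmp4 (called without CKD replicate 1, at 0.0379), 0.874 for Bmp6 and 0.374 for Bmp5.

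All 3 latent TGF-beta binding proteins had a negative log2 fold change, and none was called. Ltbp3, which is needed for secretion of latent TGF-beta in bone, was at 19.0, 17.3 and 17.3 FPKM in CKD and 22.1, 26.8 and 28.7 FPKM in control, with no overlap (log2 fold change -0.50, SE 0.11, adjusted p = 0.0924 in limma). Ltbp2, the most abundant of the 3 on average and the one that does not bind latent TGF-beta, was at 76.3, 74.6 and 100.3 FPKM in CKD and 78.1, 166 and 165 FPKM in control. Control replicate 1 lay among the CKD values (adjusted p = 0.315 in limma), and without it the gene was called (log2 fold change -0.99, adjusted p = 0.0282 in limma). Ltbp1 was at 75.5 to 93.0 FPKM in CKD and 84.6 to 89.0 FPKM in control, with a log2 fold change of -0.06 and a 95% interval of -0.29 to 0.18.

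**Figure D3:**
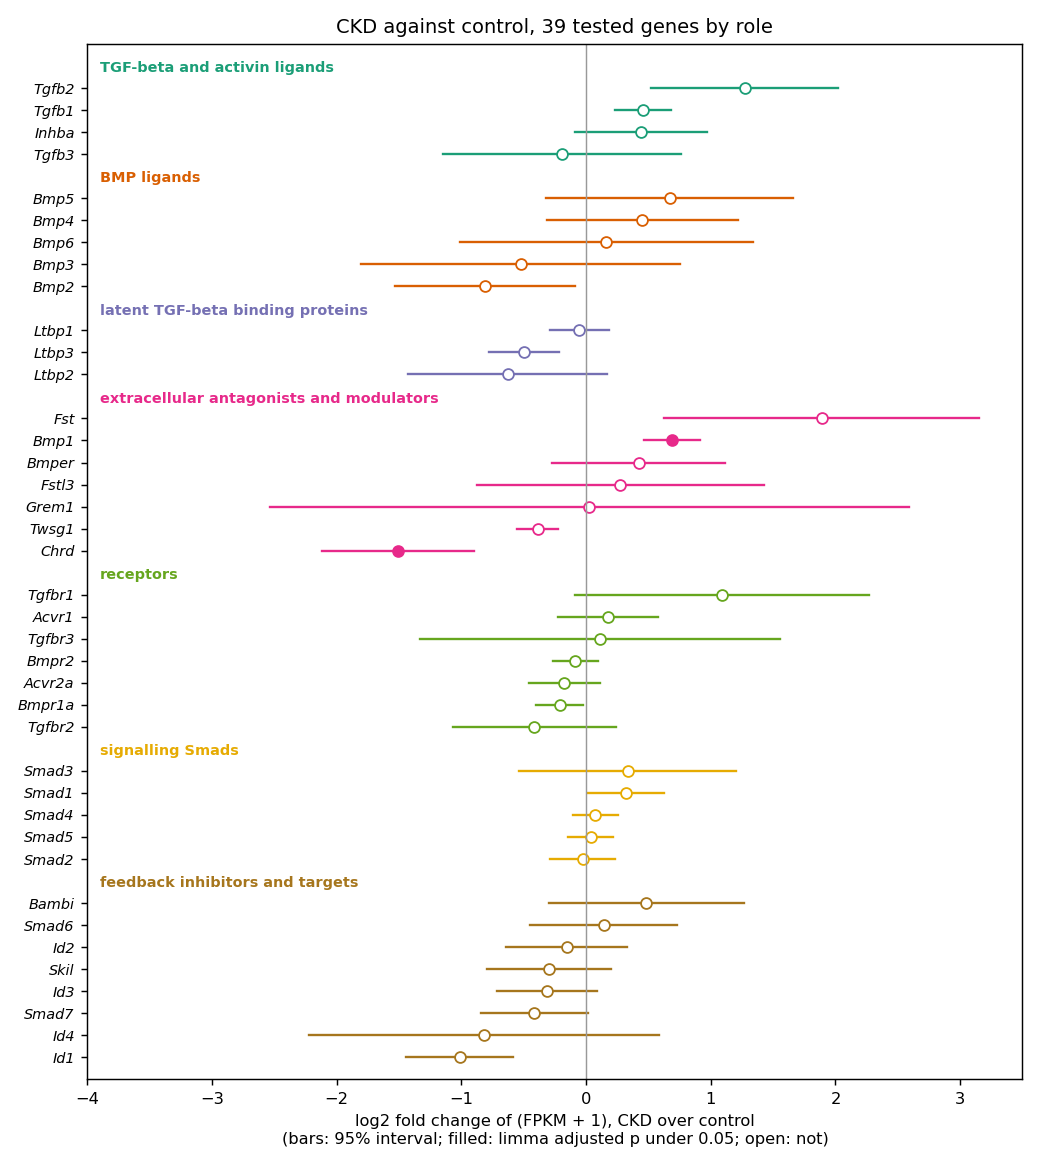
Log2 fold changes of FPKM + 1, CKD over control, of the 39 tested genes by role, with 95% intervals; filled points are called by limma. Bmp1 (0.69) and Chrd (-1.51) are filled, and the widest interval is that of Grem1 (-2.54 to 2.59).

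No receptor was called. The receptor with the highest mean was Tgfbr2, the type II receptor for TGF-beta, at 45.6, 87.6 and 85.4 FPKM in CKD and 86.1, 93.6 and 101.5 FPKM in control (adjusted p = 0.402 in limma). Its type I partner Tgfbr1 was at 12.4, 42.6 and 35.8 FPKM in CKD and 16.4, 10.1 and 10.5 FPKM in control. CKD replicate 1 lay within the control range, and the gene was called without it (log2 fold change 1.62, adjusted p = 0.0184 in limma) but not in the full comparison (1.09, adjusted p = 0.252 in limma). The libraries with high Tgfbr1 were again those with high macrophage markers, whose part was not tested. Bmpr1a, a type I BMP receptor, was at 19.96, 22.3 and 23.0 FPKM in CKD and 25.1, 25.4 and 25.4 FPKM in control. This small difference had no overlap (log2 fold change -0.21, SE 0.08, adjusted p = 0.188 in limma).

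The remaining receptors overlapped between groups. Bmpr2, the type II BMP receptor, had a log2 fold change of -0.09 (95% interval -0.27 to 0.10) at 30.1 ± 2.03 FPKM in CKD and 32.0 ± 0.401 FPKM in control. Acvr1, a type I receptor for BMPs, had 0.18 (-0.22 to 0.58) and Acvr2a, an activin type II receptor, -0.17 (-0.46 to 0.11). The co-receptor gene Tgfbr3 (betaglycan) was low in both first replicates, with 3.57, 12.5 and 12.5 FPKM in CKD and 3.55, 10.3 and 11.7 FPKM in control.

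No signalling Smad was called. Smad4, the common partner and the most abundant Smad, was at 25.9, 27.3 and 27.4 FPKM in CKD and 24.0, 27.1 and 25.3 FPKM in control, and the 95% interval of its log2 fold change ran from -0.11 to 0.26. The interval was -0.15 to 0.22 for Smad5 and -0.29 to 0.23 for Smad2. Smad1 was at 5.89, 7.02 and 8.37 FPKM in CKD and 5.51, 5.42 and 5.35 FPKM in control, with no overlap (log2 fold change 0.32, SE 0.12, adjusted p = 0.207 in limma). Smad3 was at 5.45, 13.6 and 13.8 FPKM in CKD and 6.29, 8.66 and 8.85 FPKM in control, lowest in the first replicate of each group (adjusted p = 0.616 in limma), and was called without CKD replicate 1 (log2 fold change 0.73, adjusted p = 0.0436 in limma). Smad9 was at 0.153 to 0.725 FPKM in CKD and 0.487 to 0.581 FPKM in control. In these bulk libraries, fewer cells of a type and less RNA per cell cannot be told apart.

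Of the 8 feedback inhibitors and target genes, 6 had a negative log2 fold change and none was called, where 59.4% of all tested genes had a positive one. ID proteins are helix-loop-helix factors that lack a DNA-binding region and hold back differentiation, and Id1 is a direct BMP target. Id1 was at 13.6, 8.80 and 12.5 FPKM in CKD and 27.5, 22.6 and 22.7 FPKM in control. Its highest CKD value was well below its lowest control value, and the gene stood just outside the threshold (2.08-fold lower mean in CKD, log2 fold change -1.01, SE 0.17, adjusted p = 0.0513 in limma). The difference in Id1 was -0.97 between the first replicates and -1.04 between the other libraries on the log2 scale, and the part of the macrophage markers in it was not tested. The q-value of Id1 in the authors' deposited table was 0.000125.

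The other ID genes overlapped between groups. Id3 was by far the most abundant, at 266, 258 and 302 FPKM in CKD and 273, 367 and 398 FPKM in control (adjusted p = 0.320 in limma), and it was called without control replicate 1 (log2 fold change -0.47, adjusted p = 0.0487 in limma). Id2 was at 25.1, 28.8 and 29.5 FPKM in CKD and 42.0, 26.6 and 26.5 FPKM in control, and Id4 at 15.2, 4.74 and 7.10 FPKM in CKD and 6.83, 22.2 and 21.8 FPKM in control. The first replicates of Id4 ran against the other libraries. Id1 made up 4.25%, 2.93% and 3.57% of the summed FPKM of Id1 to Id4 in CKD and 7.87%, 5.15% and 4.84% in control. This share was chosen after the values were seen and has no test.

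Among inhibitors inside the cell, Smad7, which blocks TGF-beta and BMP receptors, was at 7.89, 4.83 and 5.10 FPKM in CKD and 8.10, 7.63 and 8.52 FPKM in control. Only CKD replicate 1 reached the control range (log2 fold change -0.41, 95% interval -0.84 to 0.02, adjusted p = 0.238 in limma), and without it the gene was called (-0.61, adjusted p = 0.0147 in limma). Skil (SnoN), a co-repressor of Smads, was likewise highest in replicate 1 within CKD, at 25.8, 15.1 and 16.2 FPKM in CKD and 23.5, 23.6 and 21.9 FPKM in control (adjusted p = 0.428 in limma), and was called without CKD replicate 1 (log2 fold change -0.52, adjusted p = 0.0170 in limma). Smad6, which mainly blocks BMP signals, was at 3.09 to 5.27 FPKM in CKD and 2.37 to 4.40 FPKM in control. Bambi, a pseudoreceptor without kinase, was at 2.65, 0.962 and 1.10 FPKM in CKD and 1.46, 0.492 and 0.504 FPKM in control, highest in replicate 1 of either group. In limma the adjusted p was 0.767 for Smad6 and 0.412 for Bambi.

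Differences between CKD and control were set side by side for separate libraries, CKD replicate 1 minus control replicate 1 and the mean of the other CKD libraries minus the mean of the other controls. Replicate numbers do not pair these libraries, and libraries with a shared name start stand on both sides of this split, so the 2 differences may share animals. Of the 39 genes, 21 had the same sign in both (53.8%), beside 55.0% of all tested genes, 9 of them higher and 12 lower. The median size of the difference was 0.38 between the first replicates and 0.49 between the others, on the log2 scale. The 11 genes without overlap have equal signs by construction. Genes with opposite signs and a size over 0.5 in both were Grem1 (1.72 and -0.82), Id4 (1.05 and -1.75), Tgfb3 (0.72 and -0.65), Bmp4 (-0.50 and 0.93) and Bmp6 (-1.24 and 0.87). Within CKD, replicate 1 lay a median of 0.50 from the mean of the other libraries over the 41 genes, and replicates 2 and 3 lay 0.11 apart, and in control these medians were 0.32 and 0.064.

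**Figure D4:**
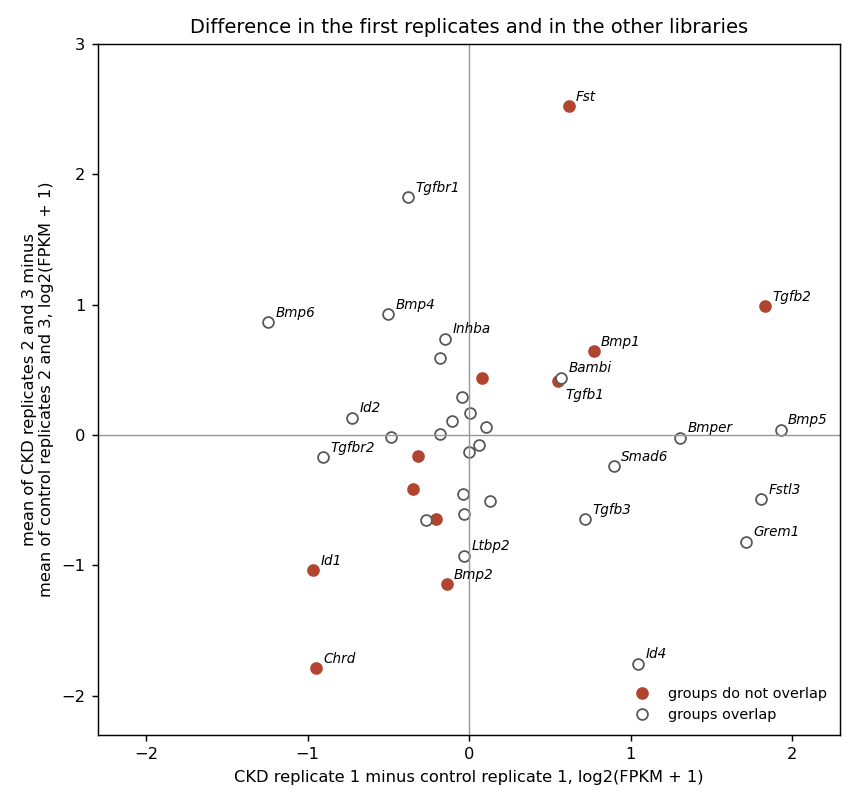
For each tested gene, the difference in log2(FPKM + 1) between CKD and control replicate 1 (horizontal) against that between the means of CKD and control replicates 2 and 3 (vertical), with filled points where the groups do not overlap. Bmp1, Tgfb2, Id1 and Chrd lie far from 0 on both axes, and Grem1 and Id4 lie in the part of the plot where the signs differ.

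A further list of 50 pathway genes, of which 44 were in the table and 31 were tested, gave 0 genes called higher and 1 called lower by limma. At an unadjusted p under 0.05, 4 were higher and 4 lower, where 14.6% and 7.51% of all tested genes were, and the median log2 fold change was 0.07. The background of called genes was 1.33% higher and 0.733% lower, as above. Tob1, which encodes an antiproliferative protein that binds Smads and dampens BMP signals in osteoblasts, fell, with 27.4, 25.6 and 25.5 FPKM in CKD and 45.6, 43.7 and 44.0 FPKM in control (log2 fold change -0.74, SE 0.07, adjusted p = 0.0181 in limma). Leaving out 1 library at a time, its limma adjusted p ran from 0.00682 to 0.148, and it was called in 2 of these 6 fits, those without a first replicate. Other genes with a low p were the co-repressor gene Tgif1 (0.94, adjusted p = 0.124 in limma), the TGF-beta target Ccn2 (-0.80, 0.142), the BMP family ligand Gdf6 (0.59, 0.189) and the BMP-responsive homeobox gene Msx1 (-1.05, 0.201), as log2 fold changes with limma adjusted p.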

How the data were processed

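The authors deposited 1 table with decimal commas, holding an FPKM value per gene and library, mean normalized counts per group, and their fold change (ratio), log2 fold change, p-value and q-value, per the file headers. The submitters' processing notes list DESeq2 1.22.2, DESeq 1.34.1, HTSeq 0.11.2, HISAT2 2.1.0, FastQC 0.11.9, SAMtools 1.9 and the build mRatBN7.2, without order or settings, so whether counting used strand is not known. Per the labels' protocols, libraries were poly-A selected and stranded. Fragments were recovered from FPKM and group means; all 100140 values were whole within 0.01, and 3 fragments were worth 0.0193 to 0.0263 FPKM for a gene of median length. Libraries were grouped by title and column code. On log2(FPKM + 1), linear models with a trend of variance on mean level were fitted in R 4.3.3 with limma 3.58.1, CKD over control, with Benjamini-Hochberg adjustment over all tested genes, and fold changes on that scale understate low genes. The fit was tested on simulated data with known answers. That simulation drew all libraries independently, without the near pairs or distant first replicates seen here, so it checks the fitting steps and not these calls. The filter kept genes that reached 1 FPKM in 3 or more libraries. Alternatives covered the filter, a pseudocount of 0.1, scaling, limma-voom on recovered fragments, library weights, a replicate block, left-out libraries, the disease model tag and averaged libraries. Members and lists were chosen with earlier results of these data known. Per-library values are given for tested genes with an adjusted or unadjusted p under 0.05, for genes with a deposited q-value under 0.05 and no overlap, and for the most abundant gene of each role; those of other genes were added after their values were seen. Gene identifiers of all 41 members matched a GRCr8 gene table, used for names and overlaps only. Sequences were not analysed here. Fragments are not independent molecules, so depth covers counting error only. A few genes outside the 41 are not reported here.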

Additional observations from a re-analysis of the deposited data

How the results depend on the processing

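Bmp1 was the 1 gene called higher and Chrd the 1 called lower, and both counts depended on the libraries used. The count called higher was 0 with libraries scaled by size factors, with the replicate block, with groups by the disease model tag and with name-sharing libraries averaged, and 12 with library weights or with replicates 2 and 3 only. The count called lower was 0 without a filter, with a pseudocount of 0.1, in limma-voom, with the replicate block, by the tag and with averaged libraries, 12 with library weights and 16 with replicates 2 and 3 only. Leaving out 1 library gave 0 to 8 genes called higher and 0 to 7 called lower. In these fits 0.0564% to 15.1% of all tested genes were called. The weighted fit and the fit of replicates 2 and 3 called 49.6% and 55.0% of all tested genes, and the weights, 0.193 and 0.184 for the first replicates, stopped short of convergence. With scaling, the 1 gene called lower was Twsg1 (limma adjusted p = 0.0489). Replicate numbers did not pair the libraries, since deviations of equal numbers correlated at 0.036, -0.031 and 0.109. Over 11 genes and 16 alternatives, direction reversed once, for Bmpr1a by the tag (0.011). These 11 are the genes whose groups do not overlap, so fits that keep the title groups could hardly reverse them. Only the tag grouping could readily do so, and this count is no measure of robustness. The cause of the changes in calls was not tested. Members under about 100 fragments in a library (Nog, Smad9, Bmp5 and Bambi) are limited by depth.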

Other observations

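Some pathway genes below the filter on low values also differed by library. Nrros, which anchors latent TGF-beta on macrophages, was at 0.152, 5.68 and 3.93 FPKM in CKD replicates 1, 2 and 3 and at 0.401, 0.0188 and 0.0102 FPKM in control replicates 1, 2 and 3, the same order as the macrophage markers. Dlx5, a homeobox gene of osteoblast precursors, was highest in the first replicates, at 3.96, 0.704 and 0.375 FPKM in CKD and 3.20, 0.226 and 0.299 FPKM in control. Msx2, a BMP-responsive homeobox gene, was at 0.577, 0.294 and 0.317 FPKM in CKD and 0.777, 1.44 and 1.89 FPKM in control, with no overlap. None of these was tested.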
